A study of Gallus gallus with 12 samples.

Results

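MSX1, MSX2 and BAMBI are 3 genes that respond to BMP signalling and to Wnt signalling in many embryonic tissues. They were chosen by transcript identifier, as 1 transcript each of the 28756 transcripts measured in chicken otocysts: ENSGALT00000024209.4 for MSX1, ENSGALT00000065242.2 for MSX2 and ENSGALT00000056719.3 for BAMBI, with lengths of 1330, 1865 and 1166 bases. All 3 were found in every library and passed the filter on low counts in every comparison. The otocyst, the fluid-filled epithelial vesicle that becomes the inner ear, was electroporated in ovo on the right side in White Leghorn chicken embryos. The DNBCAT dataset (Wnt LOF EP 24 h) received a plasmid that encodes membrane-localised Cherry and a tagged, truncated form of Xenopus β-catenin that dampens transcription driven by β-catenin. The mCherry dataset (Control EP) received the fluorescent protein alone in the same Tol2 backbone. The right (transfected) and the left (non-transfected) otocyst of each embryo were collected 24 h later, at embryonic day 3, and sequenced separately, which gave 4 groups of 3 otocysts: DNBCAT right, DNBCAT left, mCherry right and mCherry left. The DNBCAT embryos are numbered 50, 51 and 52 and the mCherry embryos 60, 61 and 62. Transfection is mosaic, so that each right library mixes transfected and non-transfected cells, and only well-transfected embryos were taken. All 28756 target identifiers are chicken Ensembl transcripts, so neither construct has a row of its own and the share of transfected cells was not measured here. In bulk libraries, fewer cells of a type and less RNA per cell cannot be told apart.

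In the canonical Wnt pathway, secreted Wnt ligands bind Frizzled receptors, β-catenin accumulates and acts with TCF/LEF factors on target genes, and in the otocyst this pathway patterns the dorsal side. In the BMP pathway, secreted BMP ligands bind serine/threonine kinase receptors that phosphorylate SMAD proteins, which enter the nucleus and switch on targets such as the ID genes. MSX1 and MSX2 encode homeodomain transcription factors that mostly repress transcription and are classical BMP targets in limb, tooth and neural crest. In the chicken ear, MSX1 is known as a marker of presumptive sensory organs. BAMBI encodes a transmembrane pseudoreceptor that resembles a type I receptor but lacks the kinase domain. It dampens BMP and TGF-beta signals, is expressed together with BMP4 in Xenopus embryos, and is a β-catenin target in human tumour cells.

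The 12 libraries held from 13157404 to 16097100 estimated counts. The right otocyst of embryo 51 stood apart, since its 10 most abundant transcripts held 27.2% of its TPM (transcript abundance scaled for length and depth) against 7.40% to 8.90% in the other 11 libraries, and its TMM factor, the scaling that corrects for such composition, was 0.772 against 0.981 to 1.07. Such a composition lowers the TPM of other transcripts, and the TPM of MSX1, MSX2 and BAMBI was lowest in that library, at 62.3, 18.6 and 42.5. How far the composition accounts for these values was not tested. Levels are given below as CPM, the counts scaled to a common library size after TMM. TPM is used to compare genes with each other, for levels of single markers and as an alternative scale. Results are also given without embryo 51. The study's own list of genes regulated by DNBCAT was chosen on the same libraries and holds all 3 genes, so their right-left change in DNBCAT embryos is not independent evidence of its direction. The names used here come from the study's gene lists.

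All 3 genes were well measured. Estimated counts were between 1047 and 2938 for MSX1, between 399 and 910 for MSX2 and between 613 and 1229 for BAMBI, for which counting alone gives an error of 1.84% to 5.01% of a value. Counts were whole numbers, within 0.005, in 12 of 12 libraries for MSX2 and for BAMBI but in 1 of 12 for MSX1, so that some reads assigned to MSX1 also matched another transcript and its level is less certain. By TPM, which accounts for transcript length, MSX1 was the highest and MSX2 the lowest of the 3 in each of the 12 otocysts. MSX1 ran from 62.3 to 255 TPM with a median of 190 TPM. BAMBI ran from 42.5 to 125 TPM with a median of 105 TPM, and MSX2 from 18.6 to 54.0 TPM with a median of 40.03 TPM. Within an otocyst the TPM of MSX1 was 3.35 to 5.65 times that of MSX2 and 1.47 to 2.41 times that of BAMBI, and the TPM of BAMBI was 2.29 to 2.84 times that of MSX2. The BAMBI to MSX2 ratio thus had the narrowest range of the 3 ratios, and the lowest value of each ratio was that of the right otocyst of embryo 51. By mean log2 CPM over the 12 libraries, MSX1 was above 92.0% of the transcripts that passed the filter, BAMBI above 81.6% and MSX2 above 75.1%.

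The left otocysts give the levels without transfection. In the 6 left otocysts MSX1 measured 158 ± 23.7 CPM (SD, n = 6), MSX2 51.1 ± 9.30 CPM (SD, n = 6) and BAMBI 74.3 ± 9.36 CPM (SD, n = 6). On the log2 CPM scale the SD over left otocysts was 0.21 for MSX1, 0.26 for MSX2 and 0.18 for BAMBI. Transcripts within 0.5 of the mean level of each gene had median SDs of 0.15, 0.19 and 0.18 respectively. MSX1 thus varied more between left otocysts than 77.2% of the transcripts of similar level, MSX2 more than 69.7% and BAMBI more than 49.6%. 

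MSX1 was lower in the transfected otocyst of all 3 DNBCAT embryos. In the left otocysts it measured 192 CPM in embryo 50, 174 CPM in embryo 51 and 140 CPM in embryo 52. In the right otocysts the values were 123, 89.0 and 87.7 CPM in the same order. Every right value lay below every left value, and the lowest left otocyst, of embryo 52, was above the highest right otocyst, of embryo 50. In mCherry embryos the left otocysts measured 131 CPM in embryo 60, 142 CPM in embryo 61 and 169 CPM in embryo 62, and the right otocysts 172, 133 and 158 CPM. The mCherry sides overlapped, and only embryo 60 was higher on the right. The log2 ratios of right to left were -0.64, -0.97 and -0.68 in the DNBCAT embryos and 0.39, -0.10 and -0.10 in the mCherry embryos.

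MSX2 behaved alike on a lower level. The DNBCAT left otocysts measured 59.4, 64.7 and 41.3 CPM in embryos 50, 51 and 52, and the right otocysts 35.8, 38.8 and 26.5 CPM. The sides did not overlap, but the margin was narrow, since the highest right value of embryo 51 was close to the lowest left value of embryo 52. In mCherry embryos 60, 61 and 62 the left otocysts measured 42.5, 48.7 and 49.8 CPM and the right otocysts 44.5, 38.8 and 41.3 CPM. These overlapped, and again embryo 60 alone was higher on the right. The log2 ratios were -0.73, -0.73 and -0.64 in DNBCAT embryos, the narrowest range of the 3 genes, and 0.06, -0.33 and -0.27 in mCherry embryos.

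BAMBI, the pseudoreceptor, was also lower on the transfected side of the 3 DNBCAT embryos. The DNBCAT left otocysts measured 80.3, 89.9 and 68.5 CPM in embryos 50, 51 and 52, and the right otocysts 58.3, 52.1 and 41.3 CPM, with no overlap. In mCherry embryos 60, 61 and 62 the left otocysts measured 64.0, 70.6 and 72.5 CPM and the right otocysts 65.6, 58.5 and 56.2 CPM, which overlapped. The log2 ratios were -0.46, -0.79 and -0.73 in DNBCAT embryos and 0.04, -0.27 and -0.37 in mCherry embryos. All 3 genes had right-side values wholly below the left-side values in DNBCAT embryos, a pattern found in 5.11% of the transcripts, and none had it in mCherry embryos, where 2.68% of the transcripts did. In 3 of 3 DNBCAT embryos each gene was lower on the right, against 17.5% of all transcripts. Each was lower in 2 of 3 mCherry embryos, a pattern whose share of all transcripts was not counted. The share lower in all 3 mCherry embryos was 13.7%.

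**Figure D1:**
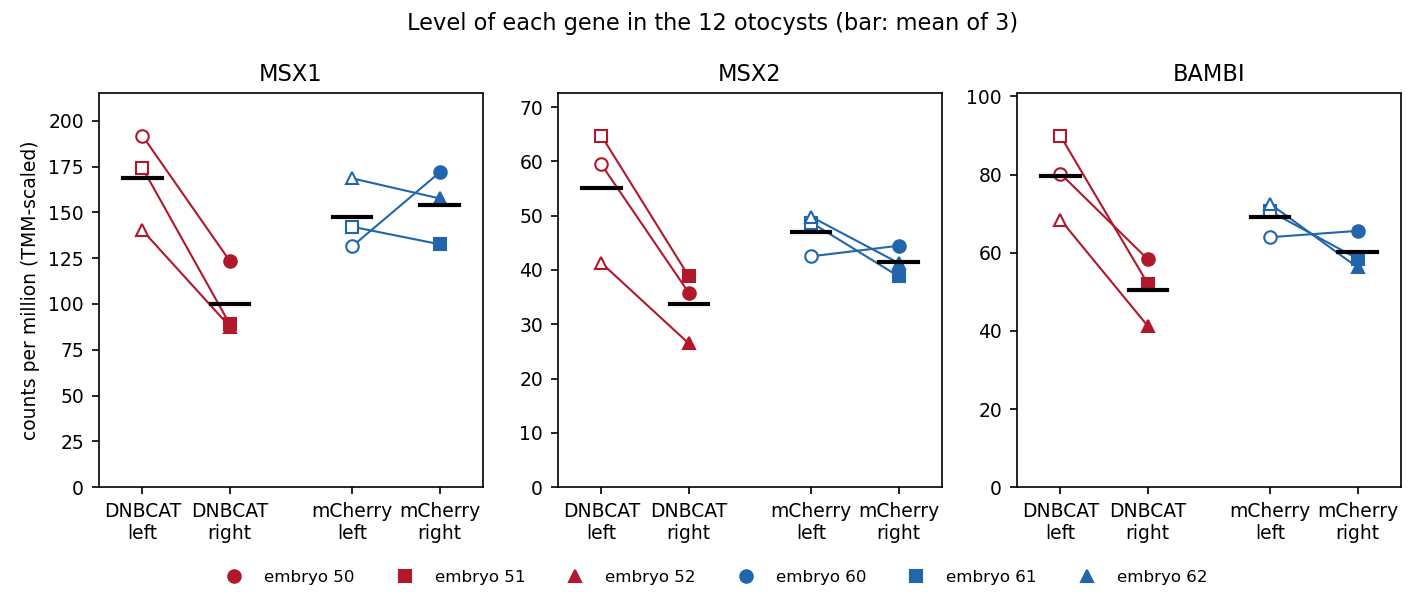
Level of MSX1, MSX2 and BAMBI in each otocyst, in TMM-scaled CPM (vertical axis, from 0). Open symbols are left and filled symbols right otocysts, lines join the otocysts of an embryo, and black bars are means of 3 otocysts. All DNBCAT lines run downward from left to right, and of the mCherry lines only those of embryo 60 run upward.

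The right-left comparison in DNBCAT embryos asks which transcripts differ between the transfected and the non-transfected otocyst. Body side, electroporation and the construct differ together here, so this comparison alone cannot tell them apart. With edgeR's quasi-likelihood test and the embryo as a block, the log2 fold change was -0.76 (SE 0.10) for MSX1, -0.70 (SE 0.09) for MSX2 and -0.66 (SE 0.10) for BAMBI. The right otocysts thus held 0.592, 0.616 and 0.635 times the left level. The unadjusted p-values were 0.00131, 0.00105 and 0.00254, which placed the genes at ranks 19, 15 and 36 of 19408 transcripts tested. After Benjamini-Hochberg adjustment over all transcripts the edgeR p was 0.718 for each gene, so none passed the threshold of 0.05. No transcript did in this comparison (0%), while 6.20% had an unadjusted p under 0.05 and 2.74% were also lower on the right. DESeq2's Wald test on the same design called 165 transcripts lower (0.850%) and 288 higher, and the 3 genes were among those lower, with adjusted p-values of 4.6e-09 for MSX1, 7.2e-07 for MSX2 and 4.5e-05 for BAMBI. The call therefore depends on the test, whereas the DESeq2 fold changes of -0.74, -0.68 and -0.63 were close to those of edgeR. Without embryo 51 the edgeR log2 fold changes were -0.65, -0.68 and -0.59. 

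In mCherry embryos the same comparison measures body side and electroporation with the fluorescent protein together. The edgeR log2 fold change was 0.07 for MSX1 (95% interval -0.25 to 0.39), -0.17 for MSX2 (-0.44 to 0.09) and -0.20 for BAMBI (-0.45 to 0.06). The adjusted p-values of edgeR were 0.964, 0.960 and 0.960. No transcript passed the adjusted threshold with edgeR (0%), 3.75% had an unadjusted p under 0.05 and DESeq2 called 84 transcripts, of which 40 were lower (0.202%), none of them MSX1, MSX2 or BAMBI. The intervals leave room for a lower level of MSX2 and BAMBI on the mCherry right side, though the DNBCAT estimates lie outside them. Embryo 60 moved all 3 values. Without it the log2 fold change was -0.09 for MSX1 (95% interval -0.24 to 0.05), -0.29 for MSX2 (-0.53 to -0.06) and -0.31 for BAMBI (-0.51 to -0.11). The unadjusted edgeR p-values of MSX2 and BAMBI were then 0.0270 and 0.0146, and the adjusted p was 0.947. In that fit 390 of the 19916 transcripts tested were lower and 541 higher with an unadjusted edgeR p under 0.05. Without embryo 61 or 62 the log2 fold changes were 0.14 and 0.15 for MSX1, -0.10 and -0.13 for MSX2, and -0.16 and -0.12 for BAMBI.

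The difference between the datasets was tested as an interaction over all 12 otocysts. The DNBCAT minus the mCherry effect of MSX1 was -0.82 on the log2 scale (SE 0.17, 95% interval -1.22 to -0.42). The difference was -0.53 for MSX2 (SE 0.13, 95% interval -0.84 to -0.21) and -0.46 for BAMBI (SE 0.14, 95% interval -0.81 to -0.11). The unadjusted edgeR p-values were 0.00227, 0.00595 and 0.0184, at ranks 32, 68 and 265 of 19298 transcripts, and the adjusted p was 0.935 for each. Unadjusted p-values under 0.05 were found for 4.36% of the transcripts, and for 2.21% with a lower effect in DNBCAT. All 3 DNBCAT ratios were below all 3 mCherry ratios for each of the 3 genes, which was the case for 5.91% of the transcripts. The DNBCAT ratios come from the libraries on which the study chose the 3 genes. These p-values, ranks and ratios are therefore not independent evidence of a difference. DESeq2's adjusted p-values were 0.000699 for MSX1, 0.126 for MSX2 and 0.294 for BAMBI, so that only the MSX1 difference passed, and only with that tool, which called 0.197% of the transcripts lower. Without embryo 51 the edgeR differences were -0.72 for MSX1, -0.51 for MSX2 and -0.40 for BAMBI, with an unadjusted p of 0.0518 for BAMBI.

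The DNBCAT left otocysts were compared with the mCherry left otocysts because neither was transfected. All 3 genes were somewhat higher in the DNBCAT left group, with log2 fold changes of 0.19 for MSX1 (95% interval -0.18 to 0.55), 0.22 for MSX2 (-0.22 to 0.66) and 0.20 for BAMBI (-0.11 to 0.50). Leaving out each embryo in turn gave 0.08 to 0.31 for MSX1 (lowest without embryo 50), 0.09 to 0.39 for MSX2 and 0.10 to 0.29 for BAMBI (both lowest without embryo 51), and each was highest without embryo 52, where the interval of MSX2 was 0.07 to 0.71. The adjusted edgeR p was 0.9999 for each, and 2.31% of all transcripts had an unadjusted p under 0.05. The means of 169 ± 26.3 and 147 ± 19.1 CPM for MSX1 (SD, n = 3) overlapped within their spread. The same held for MSX2, at 55.1 ± 12.3 and 47.01 ± 3.93 CPM (SD, n = 3), and for BAMBI, at 79.6 ± 10.7 and 69.0 ± 4.47 CPM (SD, n = 3).

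The right otocysts were also compared across the datasets. MSX1 measured 100.03 ± 20.3 CPM (SD, n = 3) in DNBCAT right and 154 ± 19.8 CPM (SD, n = 3) in mCherry right, and every DNBCAT value was below every mCherry value, as for 5.56% of the transcripts. Its log2 fold change was -0.61 (SE 0.19), with an unadjusted edgeR p of 0.0145 and an adjusted p of 0.980. The MSX2 groups measured 33.7 ± 6.45 and 41.5 ± 2.82 CPM (SD, n = 3), with a log2 fold change of -0.30 (SE 0.18). They overlapped only through the right otocyst of embryo 51, which at 38.8 CPM was level with the lowest mCherry value, that of embryo 61. The BAMBI groups overlapped as well, with 50.6 ± 8.64 and 60.1 ± 4.88 CPM (SD, n = 3) and a log2 fold change of -0.24 (SE 0.17). Without embryo 51 the log2 fold changes were -0.55 for MSX1, -0.43 for MSX2 and -0.28 for BAMBI. Without embryo 52 those of MSX2 and BAMBI were -0.15 and -0.12, and without embryo 50 BAMBI had -0.37. On log2(TPM + 1) MSX2 and BAMBI had -0.61 and -0.56, where the median of all transcripts was -0.25. For MSX2 and BAMBI the within-embryo ratios therefore separated the datasets, while the levels on the right overlapped, for MSX2 through embryo 51 alone. The difference between the datasets thus does not measure the right otocysts alone. It also holds the left otocysts, where DNBCAT against mCherry had log2 fold changes of 0.22 for MSX2 (95% interval -0.22 to 0.66) and 0.20 for BAMBI (-0.11 to 0.50). The unadjusted p was under 0.05 for 2.85% of the transcripts, and 1.73% were also lower in DNBCAT. The right-left comparisons and the comparisons across datasets use the same libraries and are not independent of each other. Those with DNBCAT otocysts also use the libraries on which the study chose the 3 genes.

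**Figure D2:**
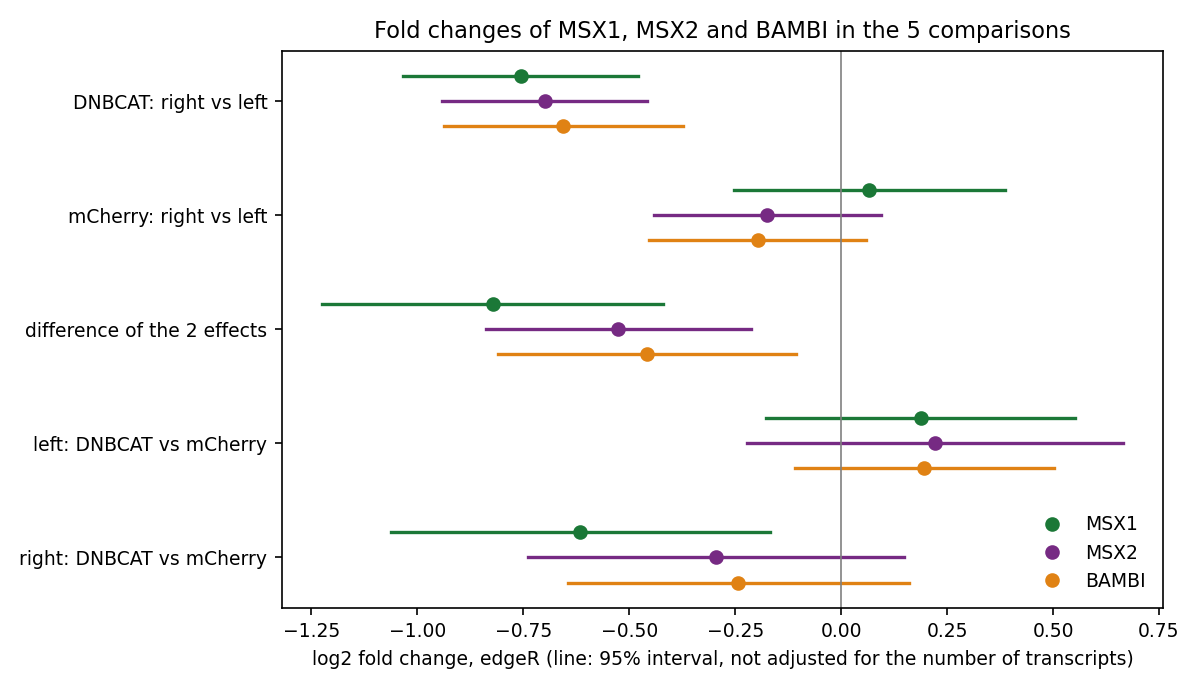
Log2 fold changes of MSX1, MSX2 and BAMBI from edgeR in the 5 comparisons (horizontal axis), with 95% intervals as lines, not adjusted for the number of transcripts. The DNBCAT right-left estimates lie between -0.76 and -0.66, and the mCherry right-left and the left-left intervals all include 0.

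Co-variation of the 3 genes was first examined in the 6 left otocysts, which carry no construct. Pearson's r of log2 CPM was 0.956 for MSX2 and BAMBI (Spearman's rho 0.943), 0.862 for MSX1 and MSX2 (rho 0.886) and 0.822 for MSX1 and BAMBI (rho 0.943). The 2-sided exact permutation p-values of r were 0.00417, 0.0347 and 0.0417 (n = 6), and after adjustment over the 3 pairs 0.0125, 0.0417 and 0.0417. For rho the exact permutation p-values were 0.0167, 0.0333 and 0.0167 (n = 6), or 0.025, 0.0333 and 0.025 after adjustment over the pairs. Left otocysts of embryos 50 and 51 were the highest for MSX2 and BAMBI, and the left otocysts of embryos 60 and 52 the lowest. Without the 2 otocysts farthest from the median of the first gene, r was 0.775, 0.813 and 0.781 in the remaining 4. On log2(TPM + 1) the adjusted exact permutation p was 0.0583 for MSX2 and BAMBI, 0.0854 for MSX1 and MSX2 and 0.140 for MSX1 and BAMBI, so that no pair passed on that scale. The pairs with MSX1 also lost the threshold when any of embryos 52, 60, 61 and 62 was left out, with adjusted exact permutation p-values of 0.0667 to 0.192 (n = 5), and MSX1 and MSX2 without embryo 50 too (0.0583). MSX2 and BAMBI reached 0.05 without embryo 61 or 62 and stayed below it without any of the others. Each dataset has only 3 left otocysts, too few for a value within a dataset. The permutation took no account of the dataset, and all 3 genes were somewhat higher in the DNBCAT left group. The values of r, rho and p therefore also carry any difference between the datasets. The left otocysts of embryos 50, 51 and 52 are also among the libraries on which the study chose the 3 genes. These values, and their place among other transcripts, are therefore not independent of that choice.

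These correlations can be set beside those of the 19297 other transcripts in the same 6 libraries. For MSX2 and BAMBI, 0.301% of the transcripts correlated with MSX2 and 0.435% with BAMBI at least as closely as the other gene of the pair did. For MSX1 and MSX2 these shares were 1.85% for MSX1 and 2.58% for MSX2, and for MSX1 and BAMBI they were 3.19% for MSX1 and 6.31% for BAMBI. The summed CPM of 9 otic epithelium markers went the other way in the left otocysts. Its r was -0.703 to MSX1, -0.901 to MSX2 and -0.959 to BAMBI, and rho was -0.714, -0.6 and -0.771. The otic sum was also lower in every DNBCAT left otocyst (1101 to 1359 CPM) than in any mCherry left otocyst (1361 to 1401 CPM). These values therefore carry the dataset difference as well. The summed CPM of 11 mesenchyme and vessel markers had r of 0.430, 0.636 and 0.473, and rho of 0.6, 0.714 and 0.543. The signs did not hold in the other sets. Over all 12 otocysts r to the otic sum was 0.504, 0.0806 and 0.282, and over the 6 right-left log2 ratios it was 0.495, 0.307 and 0.655. Over those ratios r to the mesenchyme and vessel sum was -0.256, -0.102 and -0.516. These are descriptions over few libraries, and the part of tissue composition in the co-variation was not tested.

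Over all 12 otocysts r was 0.957 for MSX2 and BAMBI, 0.842 for MSX1 and BAMBI and 0.819 for MSX1 and MSX2. The right-left difference in DNBCAT embryos adds to the spread in this set. MSX2 was the transcript closest to BAMBI and BAMBI the closest to MSX2, at rank 1 of 19297 in either direction. MSX1 was at rank 28 for BAMBI and at rank 33 for MSX2, while for MSX1 itself BAMBI was at rank 38 and MSX2 at rank 64. When each value was taken as the deviation from its group mean, r was 0.885 for MSX2 and BAMBI, 0.732 for MSX1 and BAMBI and 0.633 for MSX1 and MSX2. On these deviations 0.301% of the transcripts correlated with MSX2 at least as closely as BAMBI did, and 0.0829% with BAMBI as closely as MSX2 did. For MSX1 and BAMBI the shares were 0.845% for MSX1 and 1.46% for BAMBI. For MSX1 and MSX2 they were larger, 2.43% for MSX1 and 8.75% for MSX2. The order of the pairs on deviations depended on embryo 51. Without it, over 10 otocysts, r was 0.890 for MSX2 and BAMBI and 0.863 for MSX1 and BAMBI. MSX1 and MSX2 then had the highest r of the pairs, 0.934. MSX2 and BAMBI had r of 0.930 in the 6 mCherry otocysts alone, against 0.475 for MSX1 and MSX2 and 0.294 for MSX1 and BAMBI. In the 6 DNBCAT otocysts, which include the right-left difference, r was 0.961, 0.878 and 0.944 for these pairs in the same order. Without embryo 51 the correlations over 10 otocysts were 0.956, 0.860 and 0.923 in the order of the first sentence, and the MSX1 and MSX2 value was thus the one that moved the most. MSX2 was then at rank 2 for MSX1 and MSX1 at rank 4 for MSX2, BAMBI stayed at rank 1 for MSX2, and MSX2 was at rank 2 for BAMBI. BAMBI was at rank 31 for MSX1 and MSX1 at rank 37 for BAMBI. No p-value is given for these sets, since the 2 otocysts of an embryo are not independent.

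**Figure D3:**
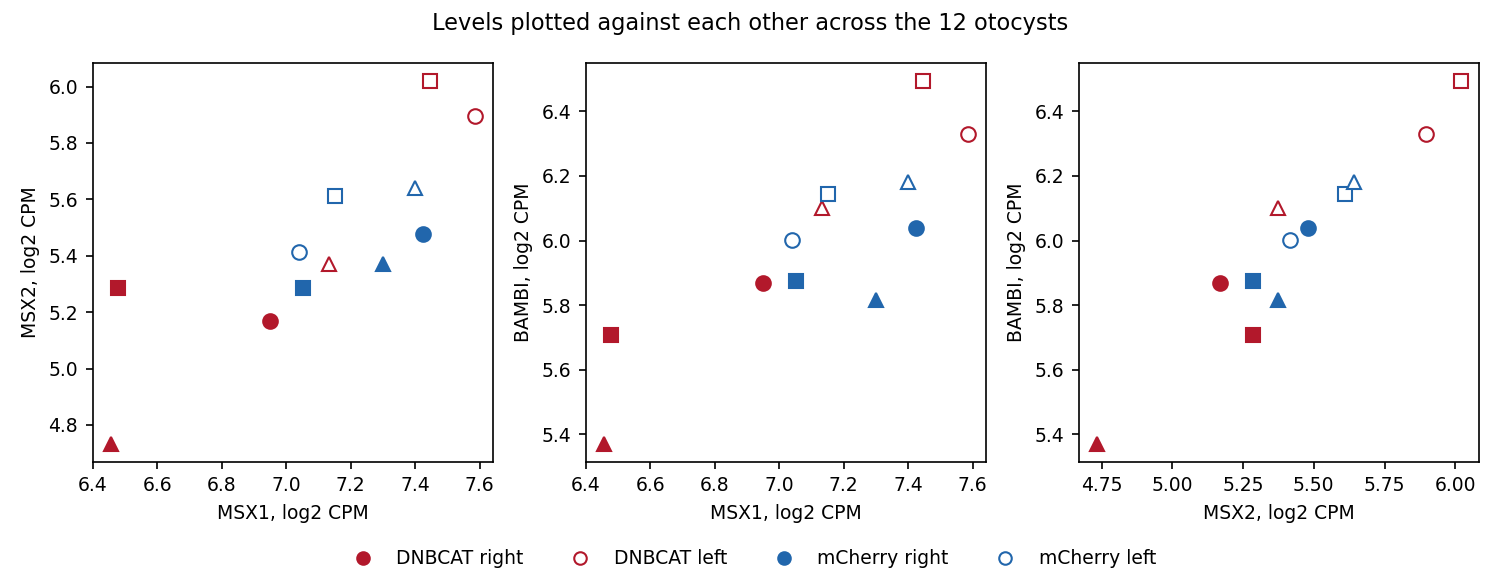
Log2 CPM of each gene against another in the 12 otocysts (both axes in log2 CPM). Red is DNBCAT and blue is mCherry, filled symbols are right and open symbols left otocysts, and circles, squares and triangles are embryos 50 and 60, 51 and 61, and 52 and 62. The MSX2 and BAMBI points lie closest to a line, with r of 0.957, and in the MSX1 and MSX2 panel the right otocyst of embryo 51 lies apart.

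The named transcripts most like each gene over the 12 otocysts were taken from the 789 transcripts outside the trio that have a name in the study's gene lists and passed the filter. For MSX1 they were WNT4, a Wnt ligand (r 0.910), KCND2, a potassium channel subunit (0.903), HBP1, an HMG-box transcription factor (0.900), NOXO1, a NADPH oxidase organiser (0.885), and the gene for carboxypeptidase M (0.885). For MSX2 they were S100A11, a calcium-binding protein (0.909), CYTL1, a small secreted protein (0.872), PNRC1, a nuclear receptor coactivator (0.861), WNT11, a Wnt ligand (0.848), and STARD5, a lipid transfer protein (0.840). For BAMBI they were PNRC1 (0.904), the tetraspanin CD82 (0.885), S100A11 (0.880), STARD5 (0.865) and WNT11 (0.857). The lists of MSX2 and BAMBI share S100A11, PNRC1, STARD5 and WNT11, while neither shares a transcript with that of MSX1. WNT4 had only 22.1 to 116 and WNT11 only 26 to 82 estimated counts. Without embryo 51 the r values ran from 0.768 (STARD5 with MSX2) to 0.924 (S100A11 with MSX2). A name in the study's gene lists means that the transcript was called in some experiment of the study. These likenesses are descriptions over 12 libraries that include the right-left difference in DNBCAT embryos.

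Of 14 other BMP and TGF-beta genes, all tested, none passed the adjusted edgeR threshold in DNBCAT right against left, and 1 was lower (0 without embryo 51) and 0 higher with an unadjusted p under 0.05, where 6.20% of all transcripts had such a p, so that the list lay near this background. In mCherry embryos 4 of the 14 had one, NBL1 and RGMA lower and TGFB3 and ID1 higher on the right, against 3.75% of all transcripts. The median log2 fold change of the list was -0.11, against -0.02 over all transcripts and -0.70 over the 3 genes. Of the 14 genes, 4 were lower on the right in all 3 DNBCAT embryos and 2 were higher, against 17.5% and 16.6% of all transcripts. Every gene on this list and on the Wnt list was called in some experiment of the study, so neither list is a neutral sample of its pathway.

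Among the ligands, BMP4 measured 13.0, 13.2 and 13.2 CPM in the left and 9.22, 7.14 and 11.5 CPM in the right otocysts of embryos 50, 51 and 52. Every right value was below every left value, as for 5.11% of all transcripts. The log2 fold change was -0.52 (SE 0.22, unadjusted edgeR p 0.0689, adjusted p 0.718), against -0.06 (SE 0.21) in mCherry embryos. The receptor ACVR2B had a log2 fold change of -0.02 (SE 0.08) and the co-receptor RGMA, with few counts, of 0.07 (SE 0.64). SMAD9, a BMP effector, had -0.24 (SE 0.36). ID1, ID2 and ID3, the usual readouts of BMP and SMAD activity, had log2 fold changes of 0.17 (SE 0.07), 0.01 (SE 0.08) and 0.05 (SE 0.17) in DNBCAT embryos and of 0.13 (SE 0.05), 0.06 (SE 0.05) and -0.01 (SE 0.16) in mCherry embryos. ID1 was higher on the right in all 3 DNBCAT and all 3 mCherry embryos. BMPER, a secreted BMP-binding protein, had the lowest value of the list, at -1.21 (SE 0.39), and ID1 the highest. BMPER was also lower in all 3 mCherry embryos, at -0.64 (SE 0.26).

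Of 19 Wnt genes, all tested, none passed the adjusted edgeR threshold in DNBCAT right against left, and 6 were lower and 0 higher with an unadjusted p under 0.05, against 2.74% of all transcripts that were lower in this way. The median log2 fold change was -0.18, and 8 of 19 genes were lower on the right in all 3 embryos, against 17.5% of all transcripts. Without embryo 51, 5 were lower, where 394 of all 19904 transcripts tested were, and the median was -0.16. The study called WNT2B, AXIN2 and SFRP1 on these same DNBCAT libraries, and they are among the 6 lower genes. The counts of this list beside all transcripts are therefore not independent of that choice. WNT2B, a canonical ligand, had the lowest value, with 43.8, 45.6 and 46.96 CPM in the left and 20.0, 19.7 and 18.3 CPM in the right otocysts. The edgeR estimate was -1.23 on the log2 scale (SE 0.11, adjusted p 0.718), beyond that of the trio, and -0.23 (SE 0.08) in mCherry embryos. APCDD1L had the highest value, 0.30 (SE 0.26). AXIN2, a negative regulator that is itself a standard target of β-catenin and was named after its values were seen, had -0.79 (SE 0.11) in DNBCAT and -0.19 (SE 0.09) in mCherry embryos. CCND1, a cell cycle gene that is also a known β-catenin target and was likewise named after its values were seen, had 0.20 (SE 0.08) in DNBCAT embryos, with log2 ratios of 0.26, 0.22 and 0.11, and 0.04 (SE 0.04) in mCherry embryos. In mCherry embryos 4 Wnt genes were lower and 0 higher with an unadjusted p under 0.05, against 1.75% of all transcripts that were lower in this way.

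**Figure D4:**
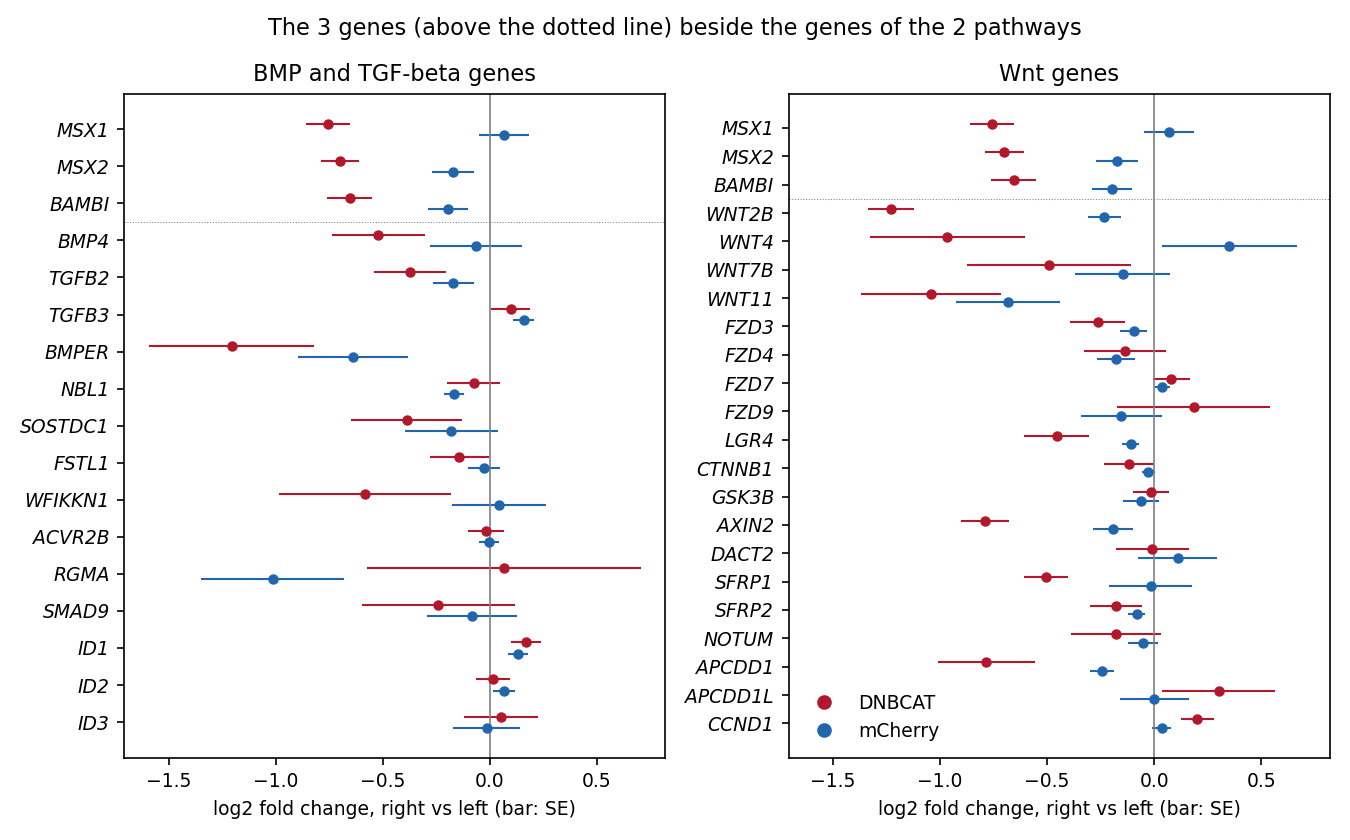
Log2 fold change of right against left otocysts from edgeR (horizontal axis, bars are SE) for MSX1, MSX2 and BAMBI, above the dotted line, and for 14 BMP and TGF-beta genes and 19 Wnt genes. Red is DNBCAT and blue is mCherry, and the red points of the trio lie between -0.76 and -0.66.

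The tissue was checked against marker lists. All 9 otic epithelium markers were detected in all 12 libraries, led by SOX10, at 74.0 to 358 TPM, and SOHO-1, at 91.7 to 322 TPM. Their summed level was 797 to 1338 CPM in DNBCAT right, 1101 to 1359 CPM in DNBCAT left, 1187 to 1401 CPM in mCherry right and 1361 to 1401 CPM in mCherry left otocysts. The lowest sum was that of the right otocyst of embryo 51. The log2 ratios of the summed otic markers were 0.14, -0.47 and -0.24 in embryos 50, 51 and 52. They were 0.00044, -0.05 and -0.21 in embryos 60, 61 and 62. Single markers differed from the sum, as in embryo 50, where CDH1, SOX9 and OTOP1 had log2 ratios of -0.50, -0.49 and -0.30. All the others of the 9 markers were above 0 in that embryo, up to 0.60 for SOHO-1. The part of these markers in the level of the trio was not tested. CDH1, the epithelial cadherin, had the lowest log2 fold change of the otic list, -0.67 (SE 0.19), and TBX2, a transcription factor, the highest, 0.14 (SE 0.23).

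Mesenchyme and vessel markers were not absent although the otocysts had been cleaned. All 11 markers were detected in all 12 libraries, among them LUM at 97.6 to 182 TPM, and their summed level was 682 to 1057 CPM in DNBCAT right, 639 to 926 CPM in DNBCAT left, 758 to 829 CPM in mCherry right and 667 to 827 CPM in mCherry left otocysts. The log2 ratios of the sum were -0.44, 0.31 and 0.48 in embryos 50, 51 and 52 and -0.09, -0.01 and 0.31 in embryos 60, 61 and 62, and the part of this sum in the level of the trio was not tested. SCX, with only 15.5 to 53.6 estimated counts, had the lowest log2 fold change of that list, -0.63 (SE 0.35), and THY1 the highest, 0.40 (SE 0.34). The 4 neuroblast markers were detected in all 12 libraries and summed to 81.7 to 104 CPM in DNBCAT right, 113 to 132 CPM in DNBCAT left, 102 to 166 CPM in mCherry right and 130 to 153 CPM in mCherry left otocysts. The neuroblast sum was lower on the right in all 3 DNBCAT embryos, with log2 ratios of -0.63, -0.47 and -0.14, and in 2 of 3 mCherry embryos, with -0.24, 0.12 and -0.54 in embryos 60, 61 and 62, and its part in the level of the trio was not tested. TLX1, with only 1 to 102 estimated counts, had the lowest log2 fold change of these 4, -2.25 (SE 0.73), and DLL1 the highest, -0.12 (SE 0.18).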

How the data were processed

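RNA of 12 individual chicken otocysts was sequenced by the authors (SMART-Seq v4 low-input libraries, paired ends) and quantified with kallisto on the GRCg6a transcriptome, whose versions are not given in the sources used here. For each otocyst the authors deposited estimated counts (expected counts, not normalized and not always whole) and TPM values for 28756 transcripts, with transcript lengths. Estimated counts were rounded and tested with edgeR 4.0.16 in R 4.3.3 (TMM, quasi-likelihood F-test, Benjamini-Hochberg adjustment over all transcripts tested). A transcript entered a test when 47% or more of that test's libraries had 5 or more estimated counts. The embryo was a block in right-left comparisons because both otocysts come from the same embryo. The deviations of right and left otocysts from their group means correlated with r of 0.0937 to 0.337 within embryos and -0.254 to 0.0298 between them. Deviations cancel out within a group, so that positive values within embryos push those between embryos down. The gap between these ranges is therefore partly built in. CPM used TMM-scaled library sizes, and log2 CPM a prior count of 2. Samples were grouped by the labels, whose embryo numbers do not pair DNBCAT with mCherry. P-values measure the spread between these embryos only.

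Co-variation was tested with 2-sided exact permutation of the pairings (Python 3.11.15, scipy 1.17.1). Alternatives were DESeq2 1.42.0 size factors and Wald test, limma 3.58.1 voom, limma on TPM values in log2 with a pseudocount of 1 or 0.1, no low-count filter, a minimum of 10 estimated counts throughout, no block, a joint fit of the 12 libraries, and omitting each embryo in turn. Correlations with marker sums, ranks over other sets of otocysts, neighbouring genes and values without embryo 51 over 12 otocysts were added after seeing the data. The tests were tested on simulated data, in which the planted fold changes were larger than those of the 3 genes. That run does not gauge the tests at changes of the size seen here.

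The members and gene lists were chosen with earlier results of these data known. Named in the text are the 3 genes, BMP4, the BMP receptors, SMAD9 and the ID genes, the highest and lowest gene of each list by DNBCAT right-left log2 fold change, and the 5 named transcripts most like each gene. AXIN2, CCND1, SFRP1, NBL1, TGFB3, SOX9 and OTOP1 were named after their values were seen. Names came from the study's gene lists, which name 807 transcripts without ambiguity. The 3 genes matched the RefSeq gene table (3 of 3), but that table is of GRCg7b, so coordinates were not used here, and sequences were not analysed here. Intervals and counting errors cover counting error only where they come from counts of 1 library, since the libraries carry no molecular identifiers.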

Additional observations from a re-analysis of the deposited data

How the results depend on the processing

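The right-left log2 fold changes of the 3 genes in DNBCAT embryos kept their sign under each of the 12 alternatives, and ranged from -1.05 to -0.65 for MSX1, -0.99 to -0.68 for MSX2 and -0.95 to -0.59 for BAMBI. The lowest values are those on the TPM scales, where the median of all transcripts moved to -0.23 (pseudocount 1) and -0.30 (pseudocount 0.1). Relative to that median the values on log2(TPM + 1) were -0.81, -0.73 and -0.71. Without the replicate block they were -0.75, -0.71 and -0.65, with an adjusted edgeR p of 0.9999, and the difference between datasets was -0.82, -0.53 and -0.45, with intervals of -1.37 to -0.27, -1.11 to 0.05 and -0.91 to 0.003. Neither fit made an adjusted call in the paired comparisons, so no call could be lost. Leaving out each embryo gave -0.82 to -0.65 for MSX1, -0.74 to -0.68 for MSX2 and -0.76 to -0.59 for BAMBI. DESeq2's Wald test gave -0.74, -0.68 and -0.63 and passed all 3 genes, and gave -0.81 for the MSX1 difference between datasets, which also passed. The MSX1 value in mCherry embryos reversed to -0.093 without embryo 60, and leaving out each mCherry embryo gave -0.093 to 0.15. Counts of transcripts called, 0 with edgeR, were 453, 84, 64, 43 and 89 with DESeq2 in the 5 comparisons in the order of the text, 37 in DNBCAT right-left and 1 in the difference on log2(TPM + 1), 1 in the difference on log2(TPM + 0.1), and 1 in DNBCAT right-left with at least 10 counts in every library. The cause of these differences was not tested. The left-otocyst correlations on log2(TPM + 1) were 0.747 for MSX1 and MSX2, 0.652 for MSX1 and BAMBI and 0.914 for MSX2 and BAMBI. Leaving out each embryo gave 0.820 to 0.911, 0.733 to 0.951 and 0.929 to 0.991 respectively over 5 otocysts, and the adjusted exact permutation p (n = 5) lost the threshold for all omissions but that of embryo 51 for MSX1 and MSX2, those of embryos 50 and 51 for MSX1 and BAMBI, and those of embryos 50, 51, 52 and 60 for MSX2 and BAMBI.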

Other observations

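In the RefSeq gene table (GRCg7b, used only for gene order), CYTL1 is a protein-coding gene next to MSX1, and HMP19 is next to MSX2. These were the only 2 of the 12 protein-coding genes within 2 places of the trio with a named transcript, and both have a name only because the study listed them. CYTL1, which encodes a small secreted protein, had a log2 fold change of -0.93 (SE 0.14, adjusted edgeR p 0.718) in DNBCAT and -0.22 (SE 0.05, adjusted edgeR p 0.960) in mCherry right against left otocysts. HMP19, a neuronal vesicle protein, had -0.40 (SE 0.11, adjusted edgeR p 0.718) and -0.12 (SE 0.03, adjusted edgeR p 0.960). CYTL1 lies beside MSX1 but is among the 5 named transcripts most like MSX2 over the 12 otocysts, with r of 0.872.

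ID2, a BMP-responsive gene, measured 191 and 209 CPM in the 2 otocysts of embryo 60 and 407 to 548 CPM in the 10 otocysts of the other embryos. Embryo 60 is also the mCherry embryo whose right-left log2 ratios of MSX1, MSX2 and BAMBI were above 0. The right-left log2 ratio of ID2 itself was 0.13 in embryo 60 and 0.12 in embryo 61. A link between the level of ID2 and the ratios of the trio was not tested.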
